A study of Mus musculus with 4 samples.

Results

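The 10 genes described here handle arginine and the polyamines made from it: Nos2, Arg1, Arg2 and Ass1 on the arginine side, and Odc1, Srm, Sms, Oaz1, Azin1 and Sat1 on the polyamine side. They were chosen by name, and each was read from the most abundant of its RefSeq transcript records in a table of read counts. All 10 were among the 23783 genes with a record in that table, and 5 of them (Odc1, Srm, Sms, Nos2 and Arg1) had enough reads to be tested. The cells were BV-2, an immortalised mouse microglial line. The 2 control libraries are titled as 4 h controls, and the 2 other libraries came from cells given 10 ng/ml LPS, the bacterial endotoxin, for 4 h. No genetic change separates the groups in the labels, and both groups were kept as 1 cell line in medium with serum. The growth text also speaks of glia shaken off mixed cultures, although every sample is labelled as the line.

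Arginine is a substrate that several enzymes of a macrophage compete for. Inducible nitric oxide synthase turns it into nitric oxide and citrulline, and arginase turns it into ornithine and urea. Ornithine is decarboxylated to putrescine, which is then extended to spermidine and spermine. In macrophages the balance of synthase and arginase is a classical mark of activation state.

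Total counts ran from 2778686 to 3368693 per library, but 5 records held 53.4% to 67.5% of them, so that 902176 to 1425303 counts were left for all other genes. The control libraries differed more from each other than the LPS libraries did, and in step with base composition: the log2 ratio of control replicate 2 over replicate 1 had a Spearman's rho of -0.71 with the GC content of the record across 5845 records, against -0.30 in the LPS pair. Of 12 microglial and macrophage markers, 6 passed the count filter, with sums of 2498 to 2890 normalised counts in the controls and 2936 to 2954 after LPS, while Itgam was listed at 0. Markers of astrocytes, oligodendrocytes, neurons and fibroblasts, 19 genes in all, had none past the filter and summed to at most 1.96 normalised counts per list in any library. Nothing in the labels says whether the libraries of a group stem from separate cultures, and the tests measure only the spread between these libraries.

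Among the 5 tested genes, Odc1 and Nos2 rose after LPS and none fell (edgeR quasi-likelihood, threshold 0.05 on the adjusted p). Over all 6981 records tested, 5.53% were called in either direction, 3.82% as higher and 1.7% as lower. Nos2 reached the count filter in the LPS libraries alone, so it had to differ in order to be tested at all. Arg1 had the only negative value of the 5, and it missed the threshold. The LPS libraries alone would not have passed Arg1 either, since LPS replicate 1 had 8 counts, below the minimum count of 10. Its test thus also rests on a pass through the group where it was higher. Srm and Sms, the enzymes downstream of Odc1, had values close to 0.

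**Figure D1:**
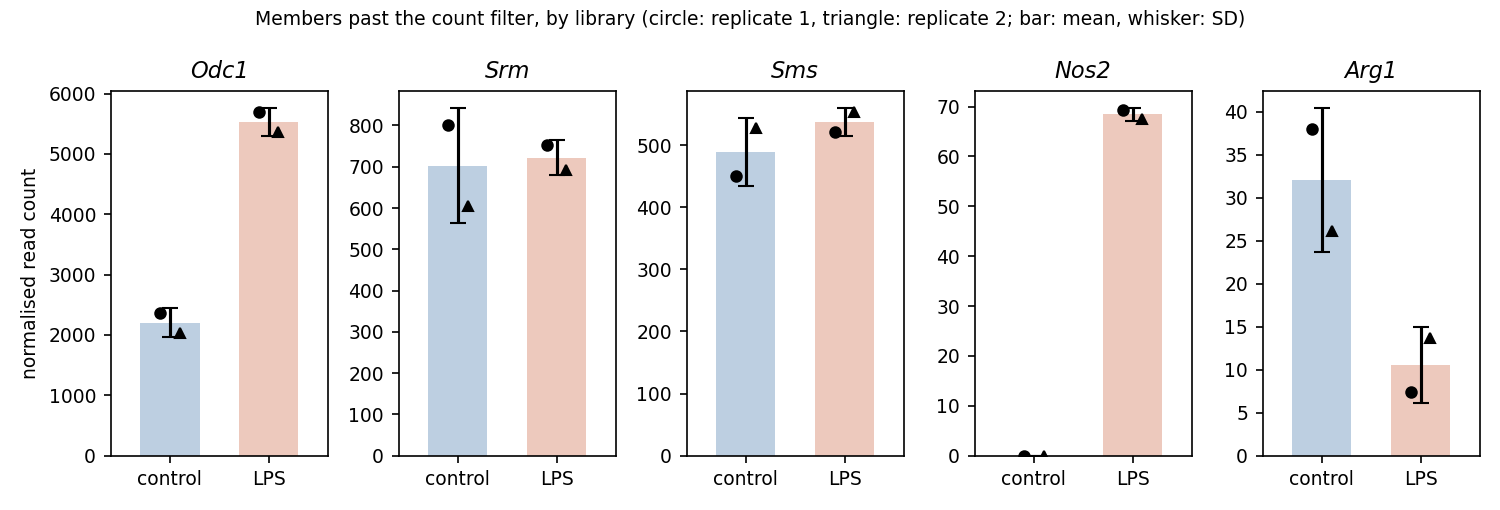
Normalised read counts (vertical axes, each with its own scale from 0) of the 5 tested genes in control and LPS libraries; bars are means, whiskers are SDs with n = 2, and points are the libraries. Both LPS libraries lie above both controls for Odc1 and Nos2 and below them for Arg1, whereas the groups overlap for Srm and Sms.

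On the nitric oxide branch, Nos2 (NM_010927, chromosome 11, 78920787 to 78960226 in GRCm38.p6) encodes inducible nitric oxide synthase. It had 0 counts in both control libraries, and 75 and 69 counts in LPS replicates 1 and 2. With a floor of 3 counts set for both controls together, the ratio of LPS to control was 43.2. This ratio is not a strict lower bound. Exact 95% Poisson intervals reached up to 3.69 counts for the controls and down to 121 for the summed LPS counts. No adjusted p is given for Nos2, since it passed the count filter through the LPS libraries alone. The 2 LPS libraries were close to each other, at 69.3 and 67.5 normalised counts, which are counts scaled to a common effective library size. Per kilobase of its 4192-base transcript it had 16.3 ± 0.314 normalised counts after LPS (SD, n = 2), a level that ranked 4047 and 4138 of 6956 records in the LPS libraries. In bulk RNA, a rise in each cell and a rise in fewer cells cannot be told apart. The fitted log2 fold change of Nos2 has no fixed size, because the gene was at 0 in the controls.

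Gch1 encodes GTP cyclohydrolase 1, the rate-limiting enzyme for tetrahydrobiopterin, the cofactor that nitric oxide synthases need. It had 19.7 and 8.44 normalised counts in the controls and 101 and 69.4 after LPS. The groups did not overlap, although the control values rest on 14 and 10 counts. The log2 fold change was 2.70 (SE 0.39, adjusted p 0.00134, edgeR quasi-likelihood). Gch1 was the only 1 of 7 tested genes for synthases, cofactor and regulators that passed. The later enzymes of the cofactor pathway, Pts and Spr, had log2 fold changes of -0.41 and -0.18, the recycling enzyme Qdpr had -0.08, and none of these 3 passed. Ddah1 and Nostrin, which encode regulators of the synthases, had -0.25 and -0.57 and did not pass. Nos1 and Nos3, the neuronal and endothelial synthases, had at most 1 count in any library.

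The arginase genes gave a different picture. Arg1 (NM_007482, chromosome 10, 24915207 to 24927470) encodes the cytosolic arginase. It had 27 and 31 counts in the controls and 8 and 14 after LPS, or 38.0 and 26.2 against 7.40 and 13.7 normalised counts. Both LPS libraries were below both controls, and the mean after LPS was 0.329 of the control mean. The log2 fold change was -1.57 (SE 0.417, 95% interval -2.48 to -0.65), with an adjusted p of 0.0558 in edgeR's quasi-likelihood test. The adjusted p fell below the threshold in 5 of 12 other settings, among them 0.0145 in edgeR with a correction for GC content and length of the record. All 5 of these settings called more records over the whole table than the 386 of the reported fit, and no other setting did. With that correction 763 were called. Arg1 missed the threshold in the other 7 settings, among them the DESeq2 Wald test (adjusted p 0.266) and both fits without an LPS library. The sign was negative in all 12, with log2 fold changes from -2.06 to -1.18. Arg2, the mitochondrial arginase gene (NM_009705, chromosome 12, 79130788 to 79156301), had 1 count in control replicate 1, 1 count in LPS replicate 1 and 0 in the 2 other libraries, which allows no comparison.

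Per kilobase of transcript, Arg1 had 25.7 and 17.7 normalised counts in the controls, where Nos2 was at 0. After LPS, Arg1 had 5.01 and 9.27, and Nos2 had 16.5 and 16.1. The order of the 2 genes by this level was thus opposite in the 2 groups, with no overlap between them in any library. Each gene passed the count filter only with the group where it was higher. The opposite order is therefore a description and is not counted as support.

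Recycling of citrulline back to arginine was only partly measured. Ass1, whose enzyme joins citrulline to aspartate (NM_007494, chromosome 2, 31470270 to 31520670), was listed at 0 in all 4 libraries. Asl, which encodes argininosuccinate lyase, the next step, had 105 and 85.2 normalised counts in the controls and 129 and 121 after LPS. Its log2 fold change of 0.40 (SE 0.224, adjusted p 0.47) did not pass in edgeR. Slc7a1, the main cationic amino acid transporter gene of most cells, had 304 and 259 normalised counts in the controls and 299 and 255 after LPS (log2 fold change -0.02, SE 0.195). Oat, which links ornithine to proline, had a log2 fold change of 0.08 (SE 0.179).

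On the polyamine side, Odc1 (NM_013614, chromosome 12, 17544808 to 17551502) was the most abundant of the 5 tested genes per kilobase of transcript in every library. It encodes ornithine decarboxylase, the first and rate-limiting enzyme of polyamine synthesis. Odc1 had 1685 and 2410 counts in control replicates 1 and 2 and 6161 and 5488 in LPS replicates 1 and 2. As normalised counts these were 2370 and 2034 against 5696 and 5367, so both LPS libraries were far above both controls. The fitted change was 2.51-fold with a 95% interval of 1.90 to 3.33 (adjusted p 0.000994, edgeR quasi-likelihood).

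Most records called higher had a larger fitted fold change, since Odc1 ranked 195th by fold change among these 267. Among all 6981 tested records, called or not, Odc1 ranked 218th. By level per kilobase its rank among 6956 records was 157 and 151 in the controls, and 55 and 56 after LPS. Outside the 5 dominant records it held 0.187% of the counts in control replicate 1 (exact 95% interval 0.178% to 0.196%) and 0.169% (0.162% to 0.176%) in control replicate 2. After LPS the shares were 0.433% (0.422% to 0.444%) and 0.413% (0.403% to 0.424%). These intervals cover counting error only, since reads without molecular identifiers are not independent molecules.

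Srm encodes spermidine synthase, which adds an aminopropyl group to putrescine, the product of ornithine decarboxylase. Sms encodes spermine synthase, which adds another to spermidine. Srm (NM_009272, chromosome 4, 148591513 to 148594619) had 802 and 604 normalised counts in the controls and 752 and 691 after LPS. Both LPS values lie between the 2 controls. The log2 fold change was 0.04 (95% interval -0.38 to 0.47, adjusted p 0.972, edgeR quasi-likelihood). Sms (NM_009214, chromosome X, 157443851 to 157492287) had 450 and 527 normalised counts in the controls and 521 and 554 after LPS, and the groups overlapped. Its log2 fold change was 0.13 (95% interval -0.26 to 0.53, adjusted p 0.862). These intervals reach up to 1.38-fold and 1.44-fold, and both lie below the lower limit of 1.90-fold for Odc1, though smaller changes of either sign were not detectable.

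Among the 3 polyamine genes the ratio between the controls fell with rising GC content, and Arg1 lay outside that order. Srm, with a GC content of 59.8%, was 0.754 times as high in control replicate 2 as in replicate 1, Odc1 with 52.4% was 0.858 times as high, and Sms with 43.5% was 1.17 times as high. Arg1, with 47.7% and few counts, was 0.689 times as high, the lowest of these ratios. After a correction for GC content and length of the record, Odc1 had 2231 and 2240 normalised counts in the controls and 5460 and 5401 after LPS. Srm then had 691 and 709 against 730 and 704, and Sms 555 and 477 against 514 and 503. For Sms the correction reversed the order of the controls, which had been 450 and 527, and did not bring them closer. Arg1 had 41.2 and 26.8 in the controls, further apart than before the correction. The log2 fold changes in that fit were 1.28 for Odc1, 0.04 for Srm and -0.01 for Sms.

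Ratios within a library do not depend on how libraries are scaled. Odc1 had 2.96 and 3.37 counts for each Srm count in the controls and 7.58 and 7.76 after LPS. For each Sms count it had 5.27 and 3.86 in the controls and 10.9 and 9.70 after LPS. Both ratios were higher in both LPS libraries than in either control. An exact two-sided permutation test over 2 against 2 libraries gave p = 0.333 for each, the smallest p this design allows. The ratio of Srm to Sms was 1.78 and 1.15 in the controls and 1.44 and 1.25 after LPS, with the LPS values inside the control range.

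Per kilobase of transcript the order of the polyamine genes was the same in every library. Odc1 stood first with 997 ± 108 normalised counts in the controls and 2505 ± 105 after LPS, Srm second with 525 ± 104 and 539 ± 31.8, and Sms last with 132 ± 14.7 and 145 ± 6.1 (SD, n = 2). No 2 of these neighbours came within each other's spread.

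**Figure D2:**
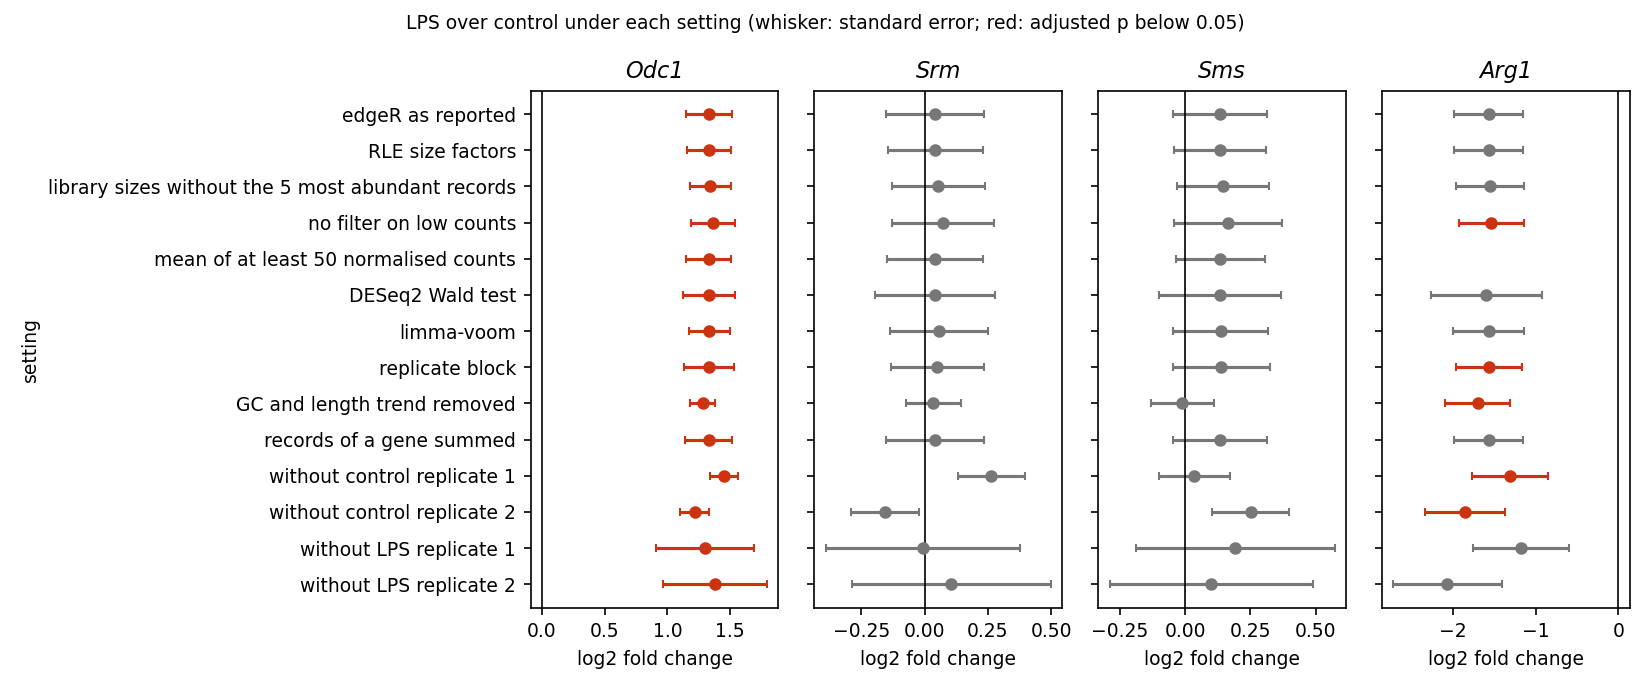
Log2 fold change of LPS over control (horizontal axes, each with its own scale) for Odc1, Srm, Sms and Arg1 under the reported edgeR fit and each other setting; whiskers are standard errors and red marks an adjusted p below 0.05. Odc1 is red in every row, with values from 1.22 to 1.45, Arg1 is red in 5 of 12 other settings, and Srm and Sms lie on both sides of 0.

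The RefSeq promoter table of GRCm38.p6 held 5 of the 10 genes. The stretches before Odc1, which rose, and before Sms, which did not pass, are shown because they allow the most abundant responding gene to be set beside a gene of the same pathway without a call. Each runs 5′ to 3′ on the gene's own strand, within the 250 bases before a transcript start and without bases inside the annotated gene. Capitals mark matches to the motifs searched.
Odc1: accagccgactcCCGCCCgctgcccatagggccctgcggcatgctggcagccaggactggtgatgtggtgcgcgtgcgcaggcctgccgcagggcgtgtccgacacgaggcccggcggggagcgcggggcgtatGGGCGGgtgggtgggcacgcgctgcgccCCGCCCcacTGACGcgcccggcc
Sms: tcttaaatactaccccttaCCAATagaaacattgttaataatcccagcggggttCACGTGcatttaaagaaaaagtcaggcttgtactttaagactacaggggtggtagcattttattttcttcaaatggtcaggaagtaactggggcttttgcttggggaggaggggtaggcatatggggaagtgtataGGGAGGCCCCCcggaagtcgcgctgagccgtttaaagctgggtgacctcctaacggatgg
The Odc1 stretch is chr12:17544623-17544807 on the plus strand, and the Sms stretch is chrX:157492288-157492537 on the minus strand. The motifs searched on both strands were the GC box GGGCGG, the E-box CACGTG, the CCAAT box (spelled as its name), the TATA box TATAAA, the core TGACG of the cyclic AMP response element, the AP-1 motif TGANTCA, the GAS motif TTCNNNGAA and the NF-kB motif. The Odc1 stretch had 3 GC boxes and 1 TGACG, at -79 to -75 from the transcript start, and a 4th GC box lay in the part not shown. The Odc1 start used here, at 17544873, lies inside the annotated gene, so the printed stretch ends before it. The Sms stretch had 1 CCAAT, 1 E-box and 2 overlapping matches to the NF-kB motif, from -60 to -50. The table lists another Sms start inside the annotated gene, and the window before that start, not shown, had 4 GC boxes, some of them overlapping, and another match to the NF-kB motif. Of 32851 promoter windows of 250 bases, 32.7% held a GC box, 17.8% a TGACG, 7.25% the NF-kB motif, 6.02% the E-box and 33.8% a CCAAT. Such a match is a string of letters in the sequence, and no binding was measured here.

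The proteins that control ornithine decarboxylase, and the enzyme that breaks polyamines down, could not be compared. Oaz1 (NM_008753, chromosome 10, 80826656 to 80829290), which encodes antizyme, the protein that delivers ornithine decarboxylase to the proteasome, was listed at 0 in all 4 libraries. Azin1 (chromosome 15, 38487430 to 38519294) encodes the antizyme inhibitor, which resembles the decarboxylase and binds antizyme in its place. It had 2 and 1 counts in the controls and 1 and 3 after LPS on record NM_001102458, and 0 on record NM_018745. Sat1 (chromosome X, 155213126 to 155216449) encodes spermidine and spermine acetyltransferase, the entry to polyamine breakdown. It had 2 and 7 counts in the controls and 7 and 12 after LPS on record NM_001291865, and 0 on record NM_009121. The summed counts of 9 in the controls (exact 95% Poisson interval 4.12 to 17.1) and 19 after LPS (11.4 to 29.7) overlap. Without a filter on low counts Sat1 had a log2 fold change of 0.95 with an adjusted p of 0.665 in edgeR, so that no change was detectable at these counts.

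These low values have to be read with the layout of the table, which counts each transcript record on its own. Of coding genes with 1 record, 40.7% (6448 of 15857) passed the count filter, against 7.46% (185 of 2479) with 2 records and 4.84% (96 of 1982) with 3 or more. Azin1 and Sat1 have 2 records each. Genes that nearly every cell uses were also near 0: Gapdh, with 2 records, had 2 to 7 counts per library, and Eif5a, with 9 records, had 3 to 7 on its most abundant one. How reads shared by several records or several genomic copies were counted is not given in the sources used here, and its part in these values was not tested. Oaz1 and Ass1 each have 1 record, so a listed 0 is reported for them and not an absence of the transcript.

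**Figure D3:**
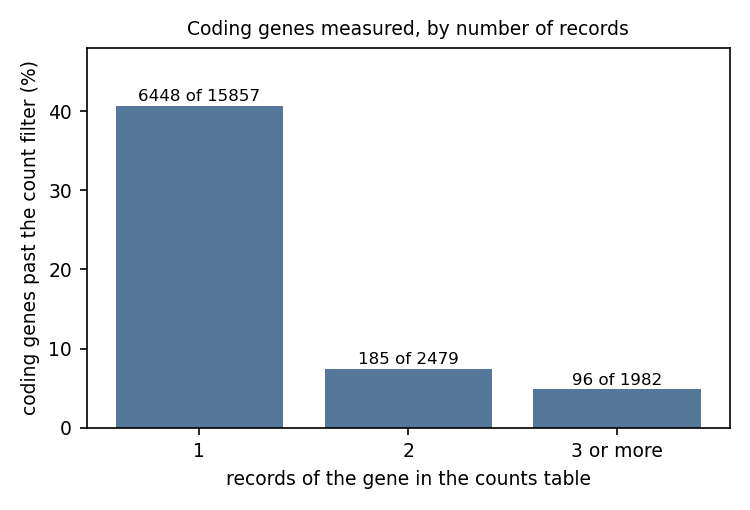
Percentage of coding genes that passed the count filter (vertical axis) by the number of their records in the counts table (horizontal axis), with the numbers of genes above the bars. The share is 40.7% for genes with 1 record and 4.84% for genes with 3 or more.

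Around these 10 genes, a list of 61 other symbols of arginine and polyamine metabolism had 59 with a record, and 30 of them were tested. Of the 30, Gch1 rose and 0 fell in edgeR's quasi-likelihood test, or 3.33% called against 5.53% over all records. At an unadjusted p below 0.05 the counts were 2 higher and 0 lower, and neither DESeq2 nor limma-voom called any of them lower. The median log2 fold change of the 30 was -0.04, beside -0.01 over all 6981 records. Without control replicate 1, Asl and Mat2a were also called higher and Nostrin lower, and without control replicate 2, Mat2a was called higher and Pycrl lower.

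Mat2a, which encodes the enzyme that makes S-adenosylmethionine, had the second highest value. S-adenosylmethionine, once decarboxylated, donates the aminopropyl groups used by Srm and Sms. Mat2a had 930 and 1041 normalised counts in the controls and 1275 and 1368 after LPS. Its log2 fold change of 0.42 (SE 0.174) did not pass (adjusted p 0.265, edgeR quasi-likelihood). The gene for the decarboxylation step, Amd1, and its near-identical copy Amd2 were both listed at 0 in all 4 libraries. Mtap, Mri1, Apip and Adi1, which salvage the methylthioadenosine left over by both synthases, had log2 fold changes between -0.23 and 0.11.

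The remaining groups held no call. Oaz2 and Oaz3, the other antizyme genes, had log2 fold changes of 0.06 and 0.19 at low counts of 33 to 54 and 2 to 11 per library. Paox, a polyamine oxidase gene, had -0.51 (SE 0.34), and Smox, the spermine oxidase gene with 9 records, had 1 count in all. Dhps and Dohh, whose enzymes act in turn to form hypusine, which derives from spermidine, on the translation factor eIF5A, had 0.13 and -0.02. Of the 4 listed polyamine transport genes none was tested. Arginine transport genes Slc7a1 and Slc7a6, the proline and creatine genes Pycrl, Aldh4a1 and Gatm, and Rars, Rars2, Prmt5, Slc25a15 and Ahcy had values between -0.15 and 0.08.

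**Figure D4:**
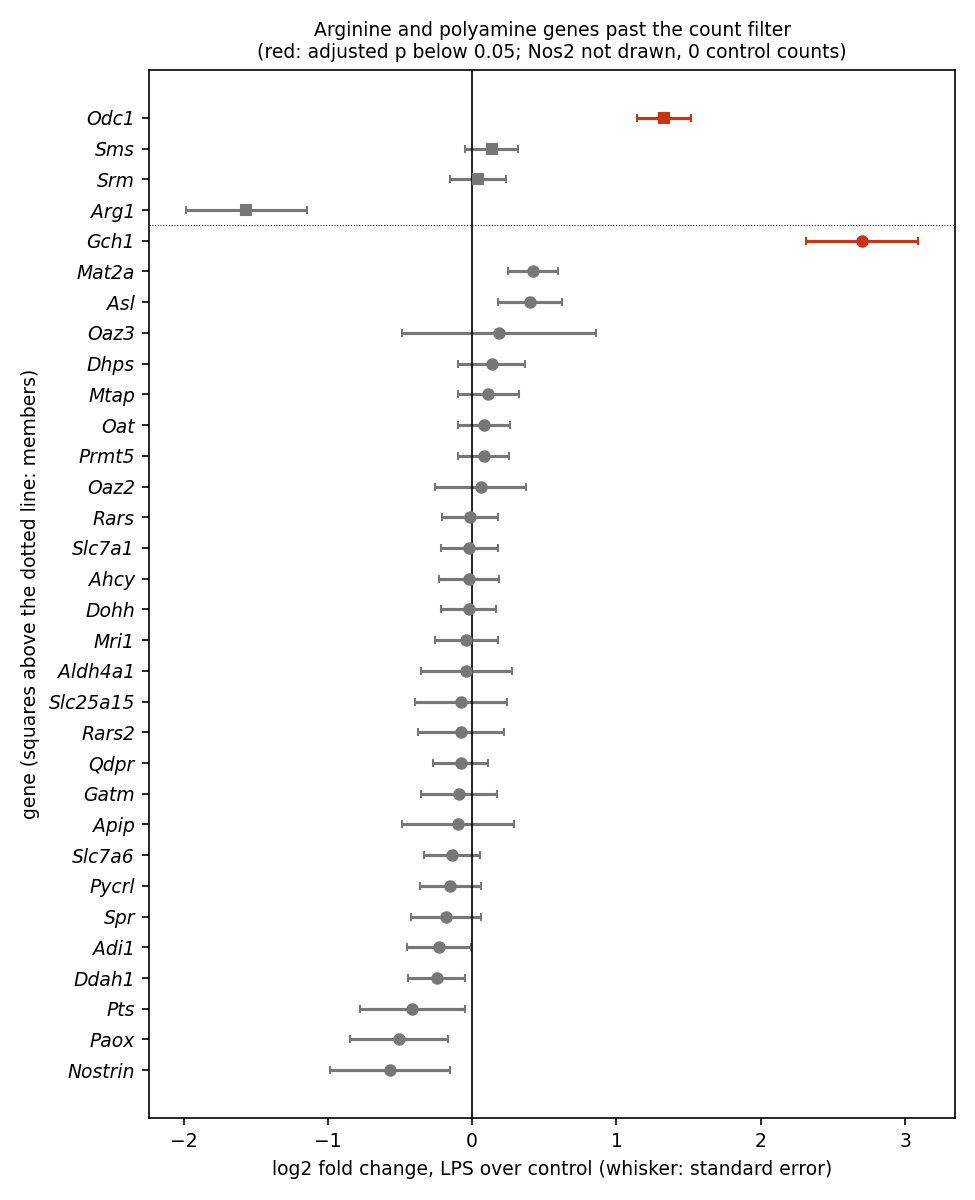
Log2 fold change of LPS over control (horizontal axis) with its standard error for 4 of the 10 genes (squares) and 28 other tested pathway genes (circles); red marks an adjusted p below 0.05. Odc1 at 1.33 and Gch1 at 2.70 are red, Arg1 lies at -1.57, and the 27 other circles lie between -0.57 and 0.42.

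The tested records whose pattern over the 4 libraries lay nearest to that of Odc1 were Nfe2l2, Abhd17c and Mapkapk2. Likeness was the Euclidean distance of log2 normalised counts centred on each gene's mean, and the distances were 0.078, 0.146 and 0.153. Nfe2l2, which encodes the transcription factor NRF2, had 218 and 186 normalised counts in the controls and 490 and 476 after LPS. With 4 libraries in 2 groups, such a distance mostly reflects a like fold change and a like difference between the controls.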

How the data were processed

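RNA-seq was run on 4 libraries of BV-2 cells, 2 controls and 2 with LPS. Per the labels' protocols, ribosomal RNA was depleted. The deposited values are read counts per RefSeq record. Although their title calls them normalised, they were treated as raw, because column totals differ and every whole number up to 228 occurs in each column. Per the submitters' processing notes, the tools were HTSeq 0.6.1, TopHat2 2.0.10, Cufflinks 2.2.1, Trimmomatic 0.33 and CASAVA 1.8.2, with the build mm10. Settings and strand handling are not stated there.

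Symbols and coordinates came from RefSeq tables of GRCm38.p6, which matched 32487 of 32915 records. GC content and length came from GENCODE M21 transcripts for 6956 of 6981 tested records. Records were filtered with filterByExpr (minimum count 10), scaled by TMM and tested with edgeR 4.0.16 in R 4.3.3 (quasi-likelihood, Benjamini-Hochberg over all tested records, threshold 0.05). The code was tested on simulated data. Other settings used DESeq2 1.42.0, limma 3.58.1, other scaling and filters, a replicate block, a GC and length trend, summed records and each library left out.

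The genes and lists were chosen with earlier results of these data known. All 10 genes were to be named, with every other pathway gene past the threshold, the tested remainder, and the 3 records nearest to Odc1. Asl and Mat2a are given with values after these were seen. Pycr1 is not analysed here, and the values of some listed genes are not reported.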

Additional observations from a re-analysis of the deposited data

How the results depend on the processing

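Odc1 and Gch1 kept their direction and their call in every setting in which they could be tested. Their log2 fold changes ran from 1.22 to 1.45 and from 2.10 to 3.33. Nos2, at 0 in the controls, had 6.98 to 9.23, and its call is not counted as support. Under the stricter filter of 50 normalised counts on average, Nos2, Arg1 and Gch1 were not tested, which left 0 pathway genes higher. Arg1 was not called as reported and was called with no filter on low counts (-1.53), with the replicate block (-1.56) and with the GC and length trend removed (-1.70). Each of these settings also called more records over the whole table than the reported fit. Leaving out 1 library gave -2.06 to -1.18 for Arg1, 1.22 to 1.45 for Odc1, 9.01 to 9.23 for Nos2, -0.16 to 0.26 for Srm and 0.03 to 0.25 for Sms. Srm was thus negative without control replicate 2 (-0.16) or without LPS replicate 1 (-0.01), and Sms with the GC and length trend removed (-0.010). None of these values for Srm or Sms was called.

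Over all records, 267 were higher and 119 lower. Without a filter 209 were lower, under the stricter filter 170 were higher and 51 lower, and DESeq2 called 66 lower. With the GC and length trend removed 414 were higher and 349 lower, so that 54.3% of calls were higher, against 69.2% as reported. With 1 library left out, 165 to 723 were higher and 39 to 581 lower, and among pathway genes 1 to 3 were higher and 0 to 2 lower. Leaving out an LPS library takes the spread from the control pair alone, and leaving out a control from the LPS pair alone, so a lone library is assumed to vary like the other group. The cause of the other shifts was not tested.

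Same-numbered libraries had deviations from their group means that correlated at 0.231 across genes, but the labels do not tie the numbers to a shared culture or day, so the pairing was not taken as given. With the replicate block, 401 records were higher and 288 lower. The log2 fold change was 1.33 for Odc1, 9.09 for Nos2, 0.05 for Srm and 0.14 for Sms, with no change of call among these 4, and Arg1 was called with an adjusted p of 0.00197. Arg1 had 80 counts over all 4 libraries, and Azin1 and Arg2 had 7 and 2. The part of sequencing depth in these low totals was not tested.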
